A study of Mus musculus with 45 samples.

Results

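The gene group described here was built around Stard4, which was chosen by its higher TPM in K36M than in control mouse oocytes, and it holds 7 further genes of sterol synthesis and sterol sensing, namely Hmgcs1, Sqle, Srebf2, Insig1, Idi1, Lss and Dhcr7. These 8 genes were taken by symbol from the 26214 genes of the deposited expression table. Transcript levels were measured as TPM, transcripts per 1000000 transcripts of a library after scaling by gene length, in fully grown oocytes (FGOs) and in late two-cell (2C) embryos. Control FGOs came from females carrying 1 Cre-dependent H3f3b K36M-flox allele, and K36M FGOs came from females carrying that same allele together with Gdf9-Cre, in which the oocyte-specific Gdf9 promoter drives recombination so that histone H3.3 with lysine 36 replaced by methionine is made from the H3f3b locus with an HA tag. All females were of a C57BL/6 and 129 hybrid background, and FGOs were taken at 3 to 4 weeks of age. Each FGO library pooled 5 oocytes (3 control and 3 K36M libraries), and each 2C library was 1 embryo from in vitro fertilization after hormone-induced ovulation, harvested 31 to 32 h later (7 control and 8 K36M oocyte-derived embryos, labelled hybrid C57BL/6 / 129 X JF-1). Embryos of K36M oocytes can inherit either H3f3b allele of the mother, and the labels do not tell these apart. Control 2C replicate 4 was set aside by the study for a technical problem and was left out here.

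Cells take sterols from synthesis and from lipoproteins. When sterol in the endoplasmic reticulum is low, SCAP carries the precursor of the transcription factor SREBP2 to the Golgi for cleavage, and the released factor activates genes of the mevalonate and cholesterol pathways and Stard4. When sterol is plentiful, INSIG proteins hold SCAP back. Mouse oocytes are known for weak cholesterol synthesis of their own and for receiving sterol products from the surrounding cumulus cells. STARD4 is a soluble protein that moves sterol between membranes. Of the other 7 genes, Hmgcs1 encodes the synthase that makes HMG-CoA, Idi1 an isomerase of the isoprenoid branch, Sqle the epoxidase of squalene, Lss the cyclase that forms lanosterol, Dhcr7 a reductase of the last steps to cholesterol, Srebf2 the factor SREBP2, and Insig1 a retention protein that is itself a sterol-responsive target. None of the 8 is a lipoprotein receptor, so uptake genes such as Npc1 and Npc2 were read from a separate list.

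The promoters of these genes were looked at because the question asked of the group was whether sterol-responsive genes moved with Stard4. RefSeq promoter windows on GRCm38.p6 were at hand for 6 of the 8 genes, the exceptions being Stard4 and Sqle. The 250 bases before the annotated start are shown for Hmgcs1 and Insig1, the most abundant members in oocytes, and for Srebf2, the factor itself. All 3 lie on the plus strand and are written 5′ to 3′, with capitals marking matches on either strand to TCACNCCAC, a core of SREBP sites, or to CCAAT, the core of NF-Y sites. The match spans of these letter strings did not overlap in the 3 windows.
Hmgcs1, chr13:119690101-119690350: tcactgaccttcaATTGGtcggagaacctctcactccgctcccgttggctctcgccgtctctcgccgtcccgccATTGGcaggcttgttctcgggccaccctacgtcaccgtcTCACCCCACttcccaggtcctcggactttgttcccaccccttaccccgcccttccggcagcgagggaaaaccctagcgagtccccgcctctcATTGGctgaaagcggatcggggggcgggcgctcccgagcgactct
Insig1, chr5:28071162-28071411: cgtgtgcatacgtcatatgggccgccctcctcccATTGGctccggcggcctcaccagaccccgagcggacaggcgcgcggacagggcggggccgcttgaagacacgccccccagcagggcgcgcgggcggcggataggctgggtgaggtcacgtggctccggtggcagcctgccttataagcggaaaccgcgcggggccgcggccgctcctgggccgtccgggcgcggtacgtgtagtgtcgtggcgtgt
Srebf2, chr15:82147019-82147268: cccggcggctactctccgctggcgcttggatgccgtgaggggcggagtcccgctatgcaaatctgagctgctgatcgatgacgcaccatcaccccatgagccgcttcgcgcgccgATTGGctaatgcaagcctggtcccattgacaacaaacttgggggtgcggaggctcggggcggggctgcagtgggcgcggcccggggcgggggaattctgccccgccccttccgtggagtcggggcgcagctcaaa
The Hmgcs1 window held 1 match to TCACNCCAC, beginning 137 bases before the start, and 3 matches to CCAAT on the minus strand. The Insig1 and Srebf2 windows held 1 match to CCAAT each and none to TCACNCCAC. Among all 32851 promoter windows of the same length, 1.05% held TCACNCCAC and 33.8% held CCAAT. Idi1 and Lss also held CCAAT, as did 1 of the 3 windows of Dhcr7, and none of these held TCACNCCAC. A match to such a string is a description of the letters and not a measured site.

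In oocytes the 8 genes fell into an abundant pair and a low group. Hmgcs1 averaged 398 TPM ± 14.3 (SD, n = 3) in control FGOs, and Insig1 averaged 340.1 ± 38.9, which placed both above the 98th percentile of all genes. Stard4 came next at 16.9 ± 3.30, followed by Sqle at 14.5 ± 4.58, Dhcr7 at 9.53 ± 1.38, Idi1 at 7.67 ± 1.25, Srebf2 at 5.77 ± 1.75 and Lss at 5.61 ± 0.802. Hmgcs1 and Insig1 did not overlap in their libraries, and Insig1 stood clear of Stard4, whereas each pair of neighbours from Stard4 down to Lss overlapped. In K36M FGOs the order was the same except that Srebf2 stood above Idi1, with which it overlapped, and the libraries of Stard4 no longer overlapped those of Sqle, nor Sqle those of Dhcr7, nor Idi1 those of Lss. Other abundant genes of the pathway were Fdft1, squalene synthase, at 522 TPM, Lbr, a sterol reductase of the nuclear envelope, at 323 and Scap at 187 in control FGOs. Mvk, mevalonate kinase, was low there, at 0.200.

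**Figure D1:**
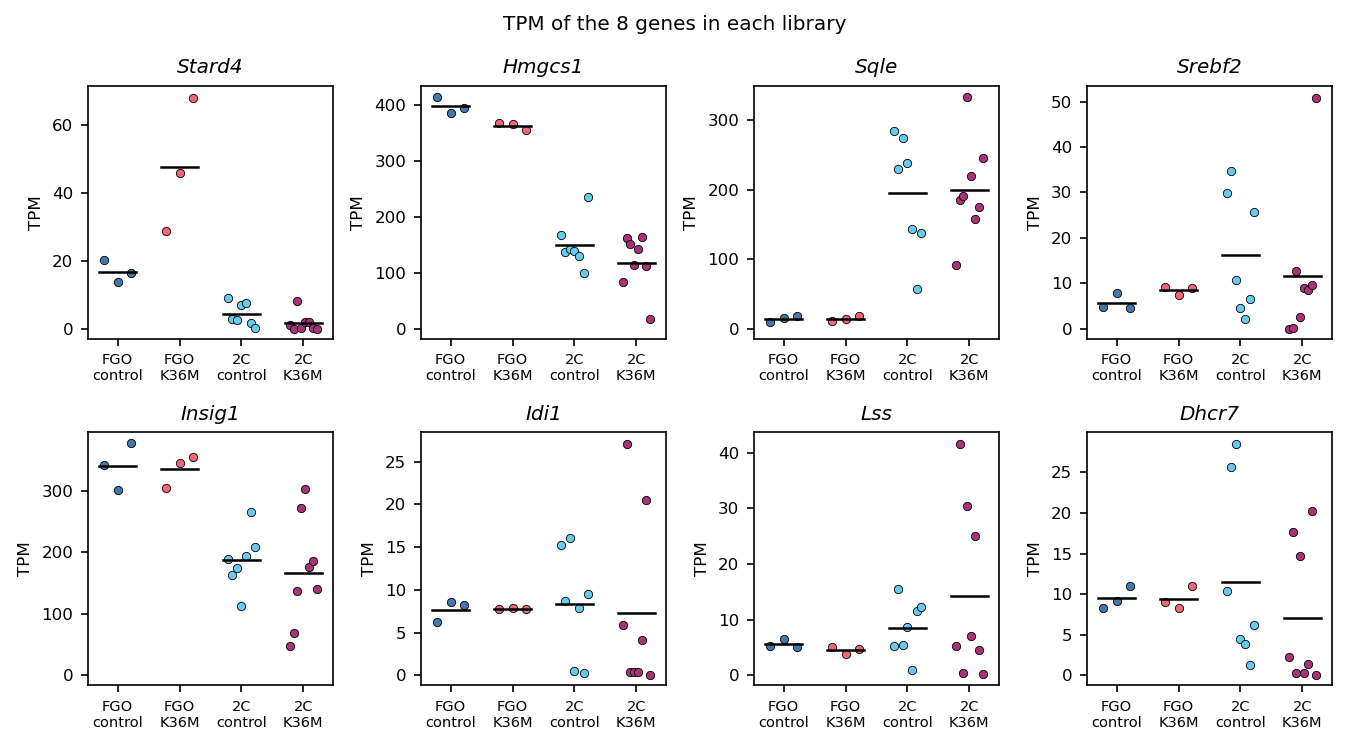
TPM of the 8 genes (y axes, linear) in each library of the 4 groups (x axes). Points are libraries and bars are group means. Stard4 separates the oocyte groups (13.8 to 20.3 against 28.7 to 68.1), Hmgcs1 and Insig1 are highest in oocytes, and Sqle is at 9.29 to 18.6 in oocytes against 57.8 to 333 in embryos.

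Stard4 was the member that defined the group, so its oocyte values are a description. It was at 20.3, 13.8 and 16.5 TPM in the 3 control FGO libraries and at 28.7, 45.8 and 68.1 in the 3 K36M libraries. Every K36M library lay above every control library, and the K36M libraries spread more widely than the controls. The mean was 2.82 times as high in K36M FGOs, at 47.5 ± 19.7 (SD, n = 3), and the log2 fold change of TPM + 1 was 1.37. These libraries chose Stard4, so no interval is given for it. Leaving out 1 FGO library at a time gave log2 fold changes between 1.08 and 1.69, which for the same reason is no sign of stability. The summed level of 12 granulosa and cumulus markers moved in the same order in the K36M libraries, at 156, 228 and 249 TPM, against 150.3, 160.1 and 175 in the controls. Of these 12 markers, 11 averaged at least 1 TPM in each genotype and none was at 0 in all libraries of a genotype. Nr5a2, a nuclear receptor, made up the largest share at 71.0 TPM in control and 118 in K36M FGOs. Its log2 fold change was 0.66 (SE 0.232, adjusted p = 0.415 in limma). The other 11 markers summed to 73.2, 93.0 and 106 TPM in the control and to 83.2, 86.8 and 109 in the K36M libraries, so that without Nr5a2 the groups overlapped. Of the 12 markers, 6 had a higher and 6 a lower mean in K36M FGOs, with Cyp19a1, the aromatase, at 25.1 and 24.9 TPM and Inhba, an inhibin and activin subunit, at 3.28 and 1.16. Nr5a2 also averaged 174 TPM in control and 201 in K36M embryos. The median sum of the 12 markers was 276 TPM in control and 268 in K36M embryos, against 160.1 and 228 in FGOs. Neither Nr5a2 nor the sum was thus confined to FGO libraries. The part of these markers in the Stard4 difference was not tested. The 6 steroidogenic markers summed to 20.4 to 29.8 TPM in control and 20.7 to 31.3 in K36M FGO libraries. The 7 stroma and blood markers summed to 66.8 to 69.5 and 56.5 to 65.2 there. Pecam1 made up most of the stroma and blood sum, at 65.1 TPM in control and 57.8 in K36M FGOs. It also averaged 38.6 TPM in control and 48.7 in K36M embryos. The other markers of that list averaged at most 2.07 TPM in FGOs of either genotype. All 8 oocyte markers averaged above 1 TPM in both genotypes, and their sum was 18822 to 18917 TPM in control and 16386 to 17484 in K36M libraries.

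None of the other 7 genes passed the test between K36M and control FGOs in limma on log2(TPM + 1), in which 1 of 13775 genes was called (0.00726% of those tested, at an adjusted p under 0.05), namely Cdo1, cysteine dioxygenase, which is named after its value was seen. Srebf2 was at 4.90, 7.79 and 4.62 TPM in control FGOs and at 9.10, 7.39 and 8.92 in K36M FGOs. The groups overlapped through 1 library each, and the log2 fold change was 0.51 (SE 0.265, 95% confidence interval -0.09 to 1.11, limma adjusted p = 0.529). Hmgcs1 was at 414, 386 and 394 TPM in control and at 368, 366 and 355 in K36M FGOs. Its groups did not overlap, with the K36M libraries lower, a pattern that 8.17% of all genes tested showed in that direction. The difference was small, at a log2 fold change of -0.13 (SE 0.0680, interval -0.29 to 0.02, limma adjusted p = 0.527). Insig1 was at 342, 300.2 and 378 TPM in control and at 304, 344 and 355 in K36M FGOs, with a log2 fold change of -0.02 (interval -0.25 to 0.21). Sqle was at 9.29, 16.1 and 18.0 TPM in control and at 11.9, 13.8 and 18.6 in K36M FGOs, with a log2 fold change of 0.05 (interval -0.58 to 0.68). Both genes overlapped throughout. Idi1 lay between 6.24 and 8.57 TPM over the 6 libraries, with a log2 fold change of 0.03 (interval -0.49 to 0.55). Dhcr7 lay between 8.28 and 11.1 TPM, with a log2 fold change of -0.01 (interval -0.52 to 0.49). Lss was at 5.02 to 6.53 TPM in control and 3.83 to 5.10 in K36M FGOs, with a log2 fold change of -0.25 (interval -0.84 to 0.34). The median over the 7 genes was -0.01, against 0.01 over all genes tested.

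**Figure D2:**
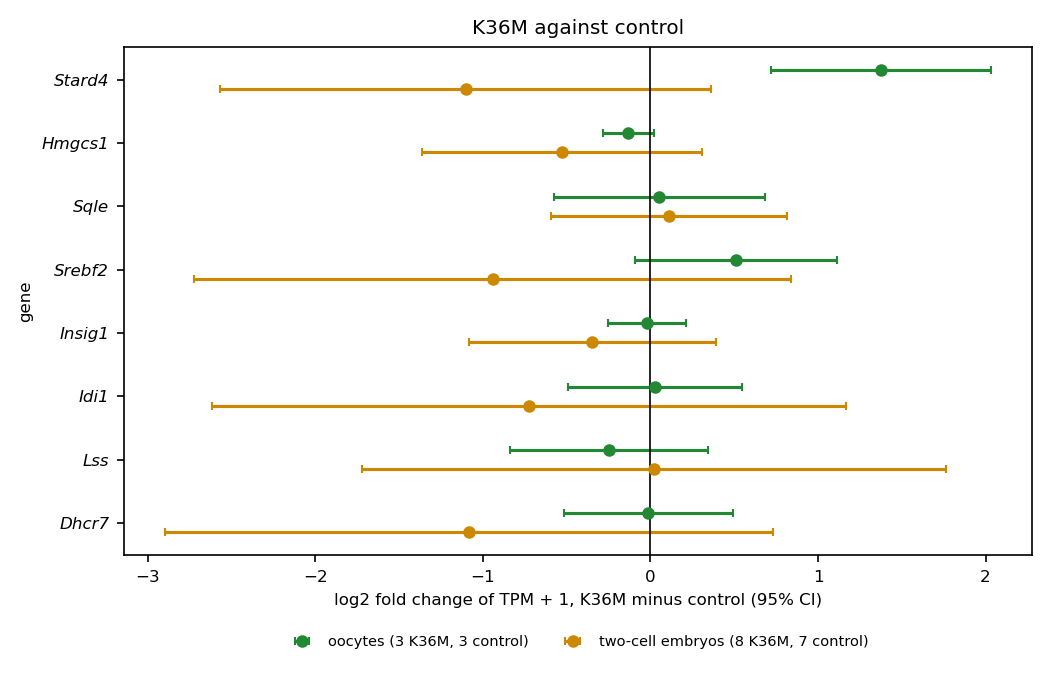
Log2 fold change of TPM + 1 of K36M over control (x axis) for each of the 8 genes (y axis), in oocytes and in two-cell embryos. Points are limma estimates and bars 95% confidence intervals. Stard4 is at 1.37 in oocytes, a value that chose the group, so that its oocyte bar is no test. It is at -1.10 in embryos. The oocyte intervals of the 7 other genes hold 0.

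The wider pathway was read from 6 lists of 73 genes, Stard4 among them. Of the 72 other genes, 62 were abundant enough to be tested in FGOs, and none of the 62 passed the adjusted threshold. At an unadjusted p under 0.05, 1 gene was higher and 3 were lower, against 5.15% and 5.34% of all genes tested. The median log2 fold change of the 62 genes was 0.04, and 34 were above 0. In the mevalonate list, which leads from acetyl-CoA to the isoprenoid units, the median over 7 tested genes was -0.13. Fdps, farnesyl diphosphate synthase and the gene with the unadjusted p under 0.05 on the high side, which is named after its value was seen, was at 0.79 (SE 0.289, limma adjusted p = 0.420). In the list from squalene to cholesterol, the median over 13 tested genes was -0.05. Hsd17b7, a sterol ketoreductase, did not overlap between the groups, at 50.2 TPM in control and 33.1 in K36M FGOs (log2 fold change -0.59, SE 0.180, limma adjusted p = 0.391).

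In the sterol sensing list, which includes Srebf1, Srebf2, Scap, the Insig genes, the site proteases, ubiquitin ligases of the pathway and the liver X receptors, 14 of 15 tested genes had a log2 fold change above 0 with a median of 0.19, whereas 52.1% of all genes tested lay above 0. No gene of the list passed the test, the smallest adjusted p being 0.476 for Nr1h2, a liver X receptor, at 0.20 (SE 0.0907, limma). Between 12 and 15 of the 14 or 15 genes of that list that were then tested lay above 0 when 1 FGO library was left out. Scap was at 0.09 and Insig2 at 0.12, both within the spread between libraries. In the uptake list the median over 8 tested genes was -0.06. Scarb2, a lysosomal membrane protein, averaged 3.67 TPM in control and 1.40 in K36M FGOs (log2 fold change -0.97, SE 0.329, limma adjusted p = 0.405). Npc1, the lysosomal sterol exporter, was at -0.46 (limma adjusted p = 0.487), and Npc2, its soluble partner, at 0.10 without overlap between the groups. Groups without overlap on the high side were seen for 7.46% of all genes tested. Scarb1, a receptor for high-density lipoprotein, was at -0.12.

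**Figure D3:**
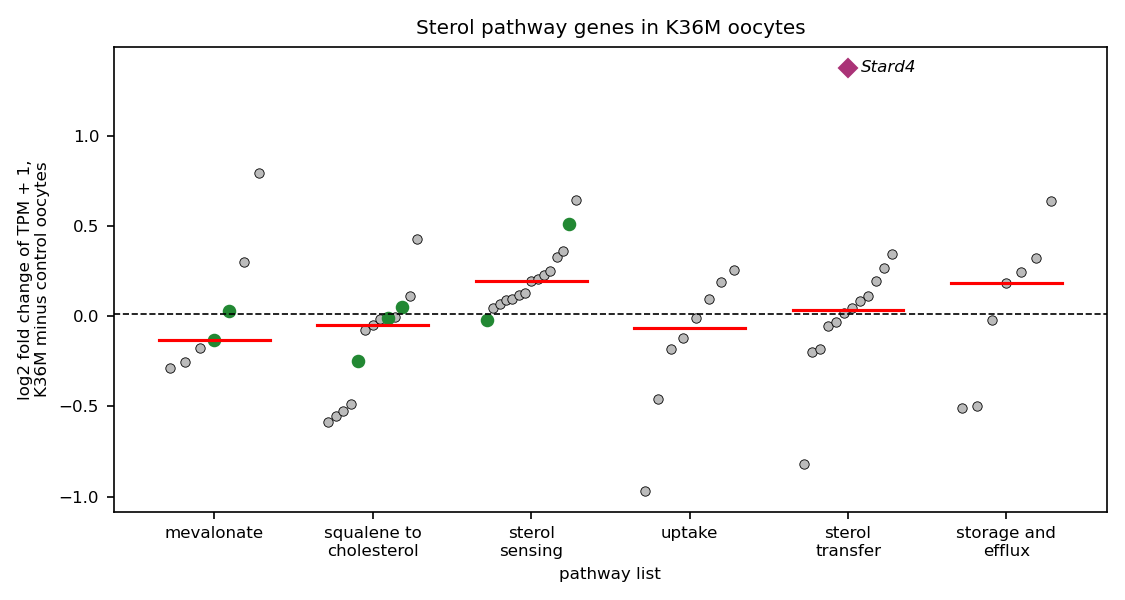
Log2 fold change of TPM + 1 of K36M over control FGOs (y axis) for the genes of the 6 pathway lists that were tested (x axis), each point being a gene. Green points are members other than Stard4, red bars list medians, and the dashed line the median of all genes tested. Stard4 (diamond, 1.37) was chosen by this difference, so its place above the list genes is a description. Of the 15 sterol sensing genes, 14 lie above 0.

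Among the genes of sterol transfer, Stard5, a close relative of Stard4, did not overlap between the groups in the opposite direction, at 26.0 TPM in control and 14.5 in K36M FGOs (log2 fold change -0.82, SE 0.249, limma adjusted p = 0.384). Stard3, the endosomal relative, was at 0.35 (SE 0.438), and Stard6 was too low to be tested, at 1.10 and 0.546 TPM. In the list of storage and efflux, Soat1, which esterifies cholesterol, was at -0.02 (SE 0.124), and Abca1, the efflux pump, was too low to be tested. Without K36M FGO replicate 1, the number of called genes was 300, and the pathway genes among them were Stard5 at -1.06 (limma adjusted p = 0.0493), Sc5d, the sterol C5 desaturase, at -0.89 (limma adjusted p = 0.0246), and Nceh1, a cholesteryl ester hydrolase, at 0.62 (limma adjusted p = 0.0254). None of the 7 members was called without that library. With no library left out, 13775 genes were tested, of which 62 were list genes other than Stard4. These 3 calls rest on leaving out 1 library and are not read as a result of the pathway.

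Stard4 lies on chromosome 18 of GRCm38.p6, from 33199138 to 33213862 on the minus strand, and no other annotated gene overlaps it. Within 500 kb of its start the annotation holds 13 genes, of which 7 were in the table and 4 were tested in FGOs. None of the 4 was called. Wdr36 was at 241 and 245 TPM in control and K36M FGOs (log2 fold change 0.02, SE 0.0754). Nrep was at 7.32 and 5.16 TPM (log2 fold change -0.44, SE 0.252), Camk4 at 1.58 and 1.43, and the long noncoding RNA 4930455D15Rik at 2.54 and 3.08. Among the other members, Srebf2 hosts the microRNA gene Mir33 on its own strand, and Insig1 and Lss overlap the antisense genes Gm35223 and 4930483K19Rik, from which reads are told apart only if strand was used in counting. The strand setting is not given in the sources used here.

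In two-cell embryos the members were compared between 8 K36M oocyte-derived and 7 control embryos, which took no part in choosing Stard4. Stard4 was at 9.05, 2.75, 2.45, 6.86, 7.51, 1.66 and 0.201 TPM in the control embryos, and at 1.25, 0, 8.07, 0.217, 2.12, 1.87, 0.192 and 0 in the K36M embryos. The groups overlapped, with 1 K36M embryo among the highest values and 3 below the lowest control. The log2 fold change was -1.10 (SE 0.708, interval -2.57 to 0.36, limma adjusted p = 0.701), and an exact two-sided permutation test gave p = 0.0656. The median of all 17362 genes tested lay at -0.26, so the Stard4 difference relative to it was -0.85, and it was -0.63 after quantile normalization. No gene in this comparison was called (0% of those tested), while 7.71% had an unadjusted p under 0.05 (1338 genes). K36M embryos had fewer genes above 0 TPM, with a median of 12994 against 14786 in control embryos, and Stard4 itself followed that number with r = 0.52 over the 15 embryos. Without the 2 embryos with the fewest genes above 0, the log2 fold change of Stard4 was -0.77. The part of that number in the difference was not tested.

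The other 7 members did not differ detectably between the embryo groups. Hmgcs1 ranged from 100.02 to 235 TPM with a median of 139 in control embryos, and from 16.9 to 164 with a median of 128 in K36M embryos (log2 fold change -0.53, interval -1.36 to 0.31). The K36M mean holds 1 embryo at 16.9 TPM, with the next lowest at 83.7, and the Hmgcs1 fold change was -0.55 to -0.22 over the alternatives. Insig1 ranged from 112 to 266 TPM with a median of 188, and from 48.1 to 302 with a median of 158 (log2 fold change -0.35, interval -1.09 to 0.39). Sqle ranged from 57.8 to 285 TPM with a median of 229.8, and from 91.3 to 333 with a median of 187 (log2 fold change 0.11, interval -0.59 to 0.81). All 3 genes overlapped broadly between the genotypes. Srebf2, Idi1, Lss and Dhcr7 scattered from embryo to embryo, with lowest control values of 0.295 to 2.26 TPM and highest ones of 15.6 to 34.7, and with lowest K36M values of 0 to 0.307 TPM and highest ones of 20.3 to 50.9. Their log2 fold changes were -0.94, -0.73, 0.02 and -1.08, with standard errors of 0.842 to 0.914. Over the 7 genes the limma adjusted p was between 0.748 and 0.995, and the exact permutation p between 0.218 and 0.975. The median of all 8 was -0.63, against -0.26 for all genes tested.

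Of the 70 pathway genes tested in embryos, 56 lay below 0 (80.0%), with a median of -0.44, against 63.8% of all genes tested, with a median of -0.26. Mvk averaged 97.6 TPM in control and 45.3 in K36M embryos, where 2 of 8 were listed at 0 (log2 fold change -2.45, SE 0.932, limma adjusted p = 0.572). Insig2 was listed at 0 in 5 of 8 K36M and 1 of 7 control embryos (log2 fold change -1.56, limma adjusted p = 0.624), Npc1 was at -1.50 (limma adjusted p = 0.636), and Gramd1b, a carrier of sterol from the plasma membrane, at -1.61 (limma adjusted p = 0.626). These 4 were the pathway genes with an unadjusted p under 0.05, all on the low side, where 6.50% of all genes tested lay.

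The largest differences among the members were between stages. FGO pools and single embryos were amplified by different numbers of cycles, so stage cannot be told apart from library making, and a lower share of transcripts cannot be told apart from a lower amount of RNA per cell. Sqle rose in both genotypes. Its 6 FGO libraries lay between 9.29 and 18.6 TPM, and its 15 embryos between 57.8 and 333, without overlap, as was the case on the high side for 14.1% of all genes in controls and 9.04% in K36M. The log2 fold change was 3.55 in controls (SE 0.443, limma adjusted p = 1.6e-06) and 3.61 in K36M (SE 0.434, limma adjusted p = 8.9e-07), with 26.6% and 29.3% of all 17358 genes called in these comparisons. Hmgcs1 fell in both genotypes, from a mean of 398 to 150.2 TPM in controls (log2 fold change -1.44, SE 0.465, limma adjusted p = 0.0238) and from 363 to 118 in K36M (-1.84, SE 0.456, limma adjusted p = 0.0036), with every embryo below every oocyte library, as was the case for 18.2% of all genes in controls and 17.2% in K36M. The control call was lost when any 1 of the 3 control FGO libraries was left out, with a limma adjusted p of 0.0745 to 0.0857. Insig1 fell in K36M, from 334 to 166 TPM (log2 fold change -1.22, SE 0.404, limma adjusted p = 0.0246), a call lost without any 1 of the 3 K36M FGO libraries (limma adjusted p of 0.0646 to 0.0933). In controls, Insig1 was at 340.1 and 187 TPM (-0.90, SE 0.412, limma adjusted p = 0.113), again without overlap, and it was called after median-of-ratios scaling (-1.21, limma adjusted p = 0.0294).

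Srebf2, Idi1, Lss and Dhcr7 passed no stage test. Their log2 fold changes were 0.91, -0.41, 0.28 and -0.26 in controls and -0.54, -1.17, 0.55 and -1.33 in K36M, each with a standard error of 0.940 to 1.04. Stard4 was lower in every embryo than in every oocyte library of its genotype, with log2 fold changes of -2.03 in controls and -4.51 in K36M, which rest on the FGO libraries that chose it and are given without a test. In a model of the 21 libraries, the genotype difference did not differ detectably between the stages for any of the 7 other members, with estimates from -1.45 for Srebf2 to 0.27 for Lss, and no gene was called (0% of those tested, with 1.15%, 199 genes, at an unadjusted p under 0.05). The control and K36M stage comparisons share no library but rest on 1 common estimate of the spread.

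**Figure D4:**
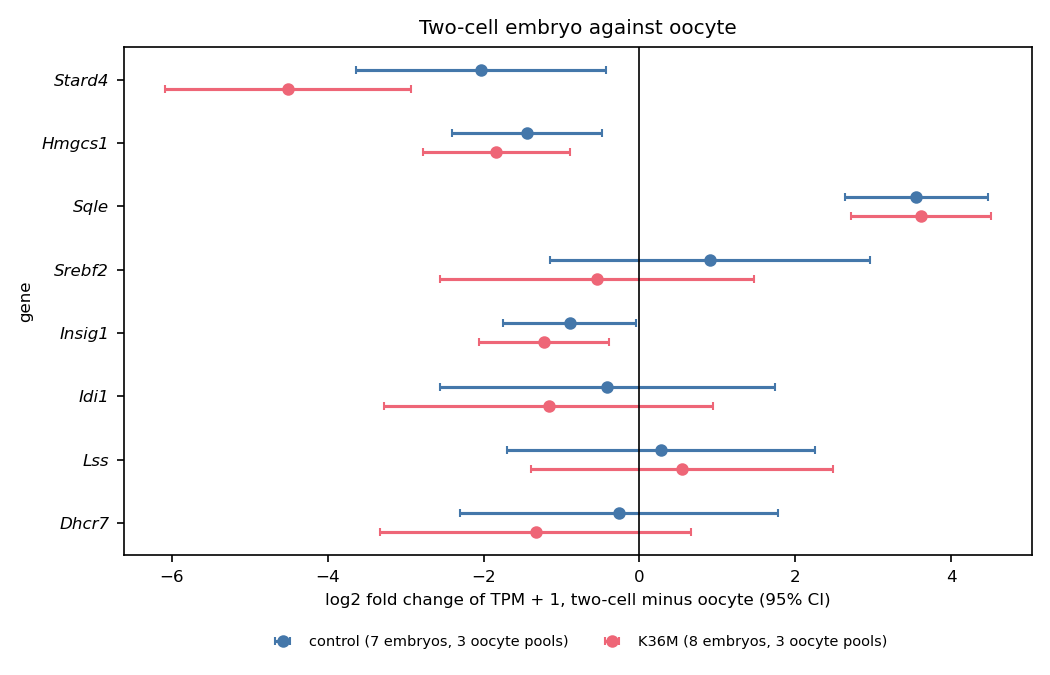
Log2 fold change of TPM + 1 of two-cell embryos over FGOs (x axis) for each of the 8 genes (y axis), in control and K36M libraries. Points are limma estimates and bars 95% confidence intervals. Sqle is at 3.55 and 3.61, Hmgcs1 at -1.44 and -1.84, and the Stard4 values of -2.03 and -4.51 are a description.

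Between the stages, 8 pathway genes of 70 tested were called higher (11.4%) and 13 lower (18.6%) in controls, against 13.4% and 13.2% of all genes. In K36M, 6 were called higher (8.57%) and 19 lower (27.1%), against 10.8% and 18.6% of all genes. The shares called higher were near those of all genes. Of the 70 genes, 61 averaged at least 1 TPM in both stages. Among these 61, 4 were called higher and 12 lower in controls, and 2 and 18 in K36M. Cyp7b1, of the storage and efflux list, was called lower in both genotypes but passed the filter only through the FGOs. In each genotype, 4 of the genes called higher passed the filter only through the embryos, where they are high, so that they had to differ and their values are a description. Mvk and Nr1h3, a liver X receptor, are among these 4. Mvk went from 0.0971 to 0.395 TPM in control FGOs to 26.0 to 137 in control embryos, and Nr1h3 averaged 0.460 TPM in control FGOs and 34.8 in control embryos. Mylip, a ubiquitin ligase that is itself a target of the liver X receptors, rose in both genotypes, from 7.21 to 117 TPM in controls, and Ebp, a sterol isomerase, rose from 2.08 to 27.7 in controls and was at 2.11 and 13.2 in K36M (limma adjusted p = 0.186).

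The pathway genes that fell in both genotypes included Marchf6, a ligase for squalene epoxidase, from 431 to 46.4 TPM in controls (log2 fold change -3.42, limma adjusted p = 4.6e-06). Nceh1 fell from 207 to 15.9 TPM, Soat1 from 117 to 17.5, Lbr from 323 to 87.2, Fdft1 from 522 to 299 and Scap from 187 to 101. Srebf1, the other SREBP gene, and Nsdhl, a sterol dehydrogenase, also fell in both. Npc1 was called in K36M only by its own test, at -3.14, against -2.09 in controls, and no difference between the genotypes was called for it. Median-of-ratios scaling lowered the median of all genes in the control comparison from 0.00 to -0.18 and changed the calls from 2323 higher and 2292 lower to 1948 and 3091. In K36M the median was -0.18, and quantile normalization moved it to 0.00 and left 2155 higher and 3022 lower calls, against 1866 and 3228.

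Across the 15 single embryos, Stard4 was set against each of the other 7 members. Pearson's r ranged from -0.37 for Lss (permutation p = 0.171) to 0.34 for Hmgcs1 (permutation p = 0.239), and Spearman's rho from -0.24 to 0.32. None of the 7 relations passed after Benjamini-Hochberg adjustment (adjusted permutation p of 0.796 for each r and 0.946 for each rho). Without the 2 embryos farthest from the median of Stard4, r lay between -0.22 and 0.28. Within the control embryos r lay between -0.59 and 0.45, and within the K36M embryos between -0.58 and 0.43, with opposite signs for Hmgcs1, Sqle, Srebf2 and Insig1, and with 0.00 and -0.58 for Dhcr7.

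The genes most like Stard4 were found by Pearson's r of log2(TPM + 1), as a description. Over the 21 libraries, among 12328 genes, they were H2-T-ps (0.93), Nobox (0.91), Gpatch2l (0.91), Plekhg3 (0.90) and 9130409I23Rik (0.90), all of them highest in FGOs, so that these points mostly share the stage difference. Nobox encodes an oocyte transcription factor. Hmgcs1 ranked 1073 on this measure (0.72) and Sqle 11630 (-0.75). Over the 15 embryos, among 12155 genes, those most like it included Kif13a (0.89), Gm30052 (0.85), Ebf2 (0.83) and Cdkn2c (0.82). The embryos share differences in the number of detected genes, which Stard4 also followed.

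**Figure D5:**
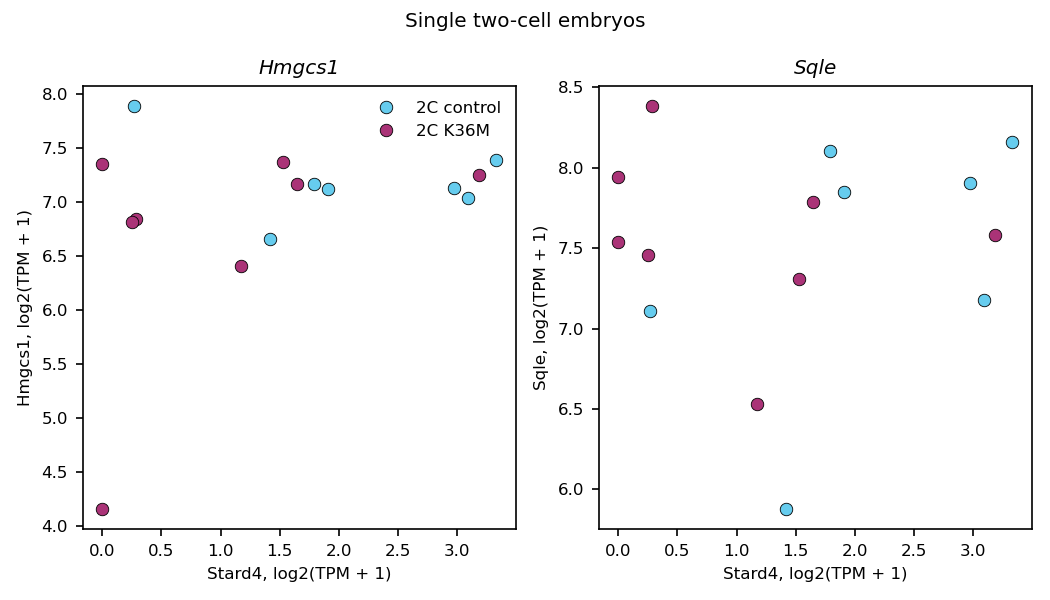
Log2(TPM + 1) of Hmgcs1 and Sqle (y axes) against that of Stard4 (x axes) in the 15 single two-cell embryos, each point being an embryo. For Hmgcs1, 1 K36M embryo lies far below the rest (r = 0.34), and r is 0.09 for Sqle. Neither relation with Stard4 was detected, which does not show its absence in 15 embryos.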

How the data were processed

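The deposited table held TPM values that the authors made from SMART-Seq stranded libraries by trimming (Trim Galore), mapping to mm10 (HISAT2), removal of ribosomal reads (BEDTools) and counting (featureCounts). The gene annotation, the lengths and the strand setting are not given in the sources used here. Each column sums to 1000000, so TPM keeps no depth, and counting intervals could not be given. Genes above 0 TPM numbered 16707 to 18559 in FGO and 10894 to 17329 in embryo libraries. Groups and replicates followed the labels, and nothing says that replicates came from separate females, so p-values measure the spread between these samples.

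From the table, limma 3.58.1 (R 4.3.3) was fitted to log2(TPM + 1) of every gene whose TPM averaged 1 or more in the fitted libraries (mean-variance trend, Benjamini-Hochberg adjustment over all genes tested, threshold 0.05), in 1 fit per stage and in a model of 4 groups for stage differences and interaction. Exact permutation tests compared embryo groups, and 100000 permutations tested correlations (scipy 1.17.1). The scripts were tested on simulated data. Fold changes on the log2(TPM + 1) scale understate those of low genes. Named pathway genes were 12 fixed ones, those past the threshold and, per list and direction, up to 2 with the smallest p whose groups did not overlap (FGOs, stages) or with an unadjusted p under 0.05 (embryos). Some pathway genes that enter the counts and medians of the lists are not reported here by name. Members and lists were chosen with earlier results of these data known. Alternatives were another pseudocount (0.1), filters, scalings, array weights, a replicate block, libraries left out and control 2C replicate 4 added. TPM cannot show the K36M substitution.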

Additional observations from a re-analysis of the deposited data

Results flagged for a closer look

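Hmgcs1 was at 16.9 TPM in K36M embryo 8, far below the other 7 K36M embryos, of which the lowest was at 83.7. That embryo had 11178 genes above 0 TPM, against a K36M median of 12994. Stard4, Idi1 and Dhcr7 were listed at 0 in it, while Sqle was at 245 and Srebf2 at 50.9. The Hmgcs1 value was the 1 case among 16 comparisons of a member with its embryo group, where chance would give 0.8. Control embryo 4, which the study set aside, held Stard4 at 12.8 TPM and Idi1 at 22.2 TPM, each above all 7 control embryos that were used, whose highest values were 9.05 and 16.0.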

How the results depend on the processing

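TPM from pools and single embryos, 3 FGO libraries a group and unknown depth limit these results. Over the alternatives the log2 fold change of Stard4 was 1.08 to 1.69 in FGOs, -2.51 to -1.82 in the control stage comparison and -6.05 to -4.21 in K36M, whose directions rest on the FGO libraries that chose it and are no sign of stability. In embryos it was -2.11 to -0.63, and Sqle kept its stage call in every alternative. Stard4 gave no embryo value under a minimum mean of 5 TPM. The alternative without the 2 embryos was chosen after seeing the data.

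In FGOs, the 1 call became 0 with a pseudocount of 0.1, without the filter or with the replicate block, and 0 to 300 without 1 library (pathway genes 0 to 3). The embryo count became 1 without the 2 embryos. Calls without 1 FGO library were 2844 to 4296 in the control stage comparison, and array weights gave 9730 (pathway 42). In K36M, array weights gave 8527 (pathway 43), and leaving out 1 FGO library gave 13 to 22 pathway genes. The interaction gave 13 genes without the filter, 3 with array weights and 0 to 3 without 1 library.

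Signs turned only for values near 0, none of them called. Leaving out 1 FGO library in turn gave -0.22 to 0.22 for Sqle, -0.11 to 0.058 for Insig1, -0.097 to 0.10 for Idi1 and -0.12 to 0.089 for Dhcr7 in FGOs, and -0.11 to 0.33 for Sqle in the interaction. The replicate block gave -0.0067 for Sqle and -0.26 for Lss in embryos, 0.013 for Dhcr7 in the control stage comparison, and -0.059 for Sqle and -0.012 for Lss in the interaction. Array weights gave 0.16 for Dhcr7 in the control stage comparison and -0.22 for Sqle in the interaction. Lss in embryos was at -0.20 with a pseudocount of 0.1 and -0.075 with replicate 4 added. For r with Stard4, a pseudocount of 0.1 gave -0.0059 for Sqle and 0.0013 for Idi1, quantile normalization gave -0.16 for Sqle and -0.24 for Srebf2, and replicate 4 gave -0.12 for Sqle, -0.12 for Insig1 and 0.058 for Idi1. The cause was not tested.

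Deviations from the group means in same-numbered libraries correlated by 0.0145 to 0.101 in FGOs and -0.101 to 0.0968 in embryos. They gave no sign of pairing, but such values cannot show that same-numbered samples were not collected or prepared together. With the block, Hmgcs1 in the control stage comparison was at -1.42 (limma adjusted p = 0.0739). With array weights, Insig1 there was at -0.99 (limma adjusted p = 0.0005).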
